A study of Rattus norvegicus with 12 samples.

Results

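The mRNAs of the surfactant proteins and of the proteases that mature them were followed in rat lung after inhalation of crystalline nanocellulose (CNC), rod-shaped crystals prepared from plant cellulose. The members were 7 symbols of the 30045 in the count table, taken by name: Sftpa1, Sftpb, Sftpc, Sftpd, Napsa, Ctsh and Pgc. Each rat gave 1 lung RNA sample, with 6 rats exposed to CNC and 6 to air. All were male rats of the inbred Fischer strain (F344/DuCrl), bought at 3 months of age and kept 3 to a cage. The CNC rats breathed 20 mg/m3 in a whole-body chamber for 6 hours a day and 5 days a week, 14 exposure days in all, and the air rats served as controls. Lungs were collected 1 day after the last exposure. Each sample was a piece of whole lung, so a value sums over all cell types in it. Library totals ran from 9917387 to 14735245 counts in CNC rats and from 8693259 to 16603697 counts in air rats. The fewest counts behind any value of a tested member were 3868, for Napsa in 1 air library, so counting error was small against the spread between rats.

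Surfactant is the film of lipid and protein that lowers surface tension in the alveoli, and it is made mainly by alveolar type 2 cells. SP-B and SP-C (Sftpb, Sftpc) are hydrophobic proteins that act within the lipid film, and both are made as larger proproteins. SP-A and SP-D (Sftpa1, Sftpd) are collectins, soluble lectins that bind microbes and particles and aid their uptake by macrophages. Napsin A (Napsa), an aspartic protease, and cathepsin H (Ctsh), a cysteine protease, cut the proproteins in the late endosomal compartments that lead to the lamellar body, and in human type 2 cells pepsinogen C (Pgc) takes part in SP-B maturation. Club cells of the airways also make SP-A, SP-B and SP-D, and macrophages also make cathepsin H.

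The upstream sequences of Sftpa1 and Sftpb are shown because these were the surfactant proteins with the highest and the lowest fold change. RefSeq promoter entries (build GRCr8, a later build than that of the counts) were matched for 4 of the 7 members, namely Sftpa1, Sftpb, Ctsh and Pgc. Each line holds the 250 bases before the annotated start, 5′ to 3′ on the strand of the gene, Sftpa1 at chr16:17042014-17042263 (+) and Sftpb at chr4:105917338-105917587 (+).
Sftpa1: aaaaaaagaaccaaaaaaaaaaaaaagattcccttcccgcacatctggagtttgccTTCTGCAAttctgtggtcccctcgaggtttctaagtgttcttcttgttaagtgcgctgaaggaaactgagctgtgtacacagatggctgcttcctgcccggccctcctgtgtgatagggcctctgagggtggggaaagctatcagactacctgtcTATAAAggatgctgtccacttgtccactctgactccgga
Sftpb: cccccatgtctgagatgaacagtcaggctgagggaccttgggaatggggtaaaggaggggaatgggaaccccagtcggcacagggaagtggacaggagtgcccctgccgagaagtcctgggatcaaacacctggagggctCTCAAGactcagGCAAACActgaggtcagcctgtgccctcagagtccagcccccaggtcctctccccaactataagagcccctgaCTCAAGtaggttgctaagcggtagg
Capitals mark the letters of 5 motifs searched on both strands in the whole window of 300 bases, which adds 50 bases after the start. These were CTCAAG for NKX2-1, TGTTTNC for FOXA, TTGNNNAA for C/EBP, TTCNNNGAA for STAT and TATAAA for the TATA box, and no marked motif overlapped another. Sftpb held 2 matches to the NKX2-1 letters and 1 to the FOXA letters, and Sftpa1 held 1 match each to the C/EBP and TATA letters. NKX2-1 and FOXA proteins are known to bind the human SFTPB promoter. Of 33469 rat promoter windows of the same length, 15.8% held the NKX2-1 letters, 21.1% the FOXA letters, 37.2% the C/EBP letters, 8.87% the STAT letters and 14.2% the TATA letters. Ctsh held no match to any of the 5, and Pgc held 1 match to the TATA letters.

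After CNC, the mRNAs of both collectins, of SP-C and of both detected proteases rose by 1.3- to 1.54-fold, whereas that of SP-B did not pass the test. By edgeR's quasi-likelihood test over 15019 genes with Benjamini-Hochberg adjustment, 5 of the 6 tested members were higher in CNC and 0 were lower. Over all tested genes 13.2% were higher, 11.4% were lower and 24.6% changed in either direction. In 4 of the 6 members every CNC rat lay above every air rat, which held for 6.82% of all tested genes, with 4.7% wholly lower and 11.5% either way. The median log2 fold change of the 6 was 0.44, and that of all tested genes was -0.0027. In bulk tissue, a change in the number of type 2 cells and a change in mRNA per cell cannot be told apart.

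Both collectins rose. Sftpa1, whose protein is the most abundant collectin of the alveolar lining, had a lowest, median and highest level of 9024, 11173 and 11779 CPM (counts per 1e6 library counts, scaled by TMM) in CNC rats, against 5712, 6968 and 7919 CPM in air rats. The groups did not overlap, and Sftpa1 averaged 10705 ± 1228 CPM in CNC rats and 6941 ± 828 CPM in air rats (SD, n = 6 each). The log2 fold change was 0.63 ± 0.09 (SE), a 1.54-fold rise (edgeR adjusted p = 7.74e-05). Sftpd, the collectin that also regulates surfactant lipid uptake, had a lowest, median and highest level of 992, 1203 and 1276 CPM in CNC rats and of 644, 867 and 929 CPM in air rats. Again the groups did not overlap, and the means were 1164 ± 117 CPM in CNC rats and 832 ± 106 CPM in air rats (SD, n = 6 each), a 1.4-fold rise (log2 0.49 ± 0.08 SE, edgeR adjusted p = 0.000559).

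The hydrophobic proteins behaved unlike each other. Sftpc, the type 2 cell marker with the second highest mean count of all genes in the table, ran from 12156 CPM through a median of 13367 to 14543 CPM in CNC rats, and from 9061 through 10079 to 12171 CPM in air rats. The lowest CNC rat lay just under the highest air rat, and the means were 13413 ± 956 CPM in CNC rats and 10230 ± 1094 CPM in air rats (SD, n = 6 each). Sftpc rose 1.31-fold (log2 0.39 ± 0.07 SE, edgeR adjusted p = 0.000526). Sftpb, without which the surfactant film cannot form, ran from 3130 CPM through a median of 3762 to 4103 CPM in CNC rats, and from 3382 through 3644 to 4177 CPM in air rats. The ranges overlapped almost wholly, with the lowest of the 12 rats in the CNC group and the highest in the air group. The means were 3718 ± 360 CPM in CNC rats and 3702 ± 270 CPM in air rats (SD, n = 6 each), and the log2 fold change was 0.01 with a 95% interval from -0.13 to 0.14 (edgeR adjusted p = 0.964). That interval does not reach the fitted change of any other tested member, the lowest of which was 0.37 for Napsa.

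**Figure D1:**
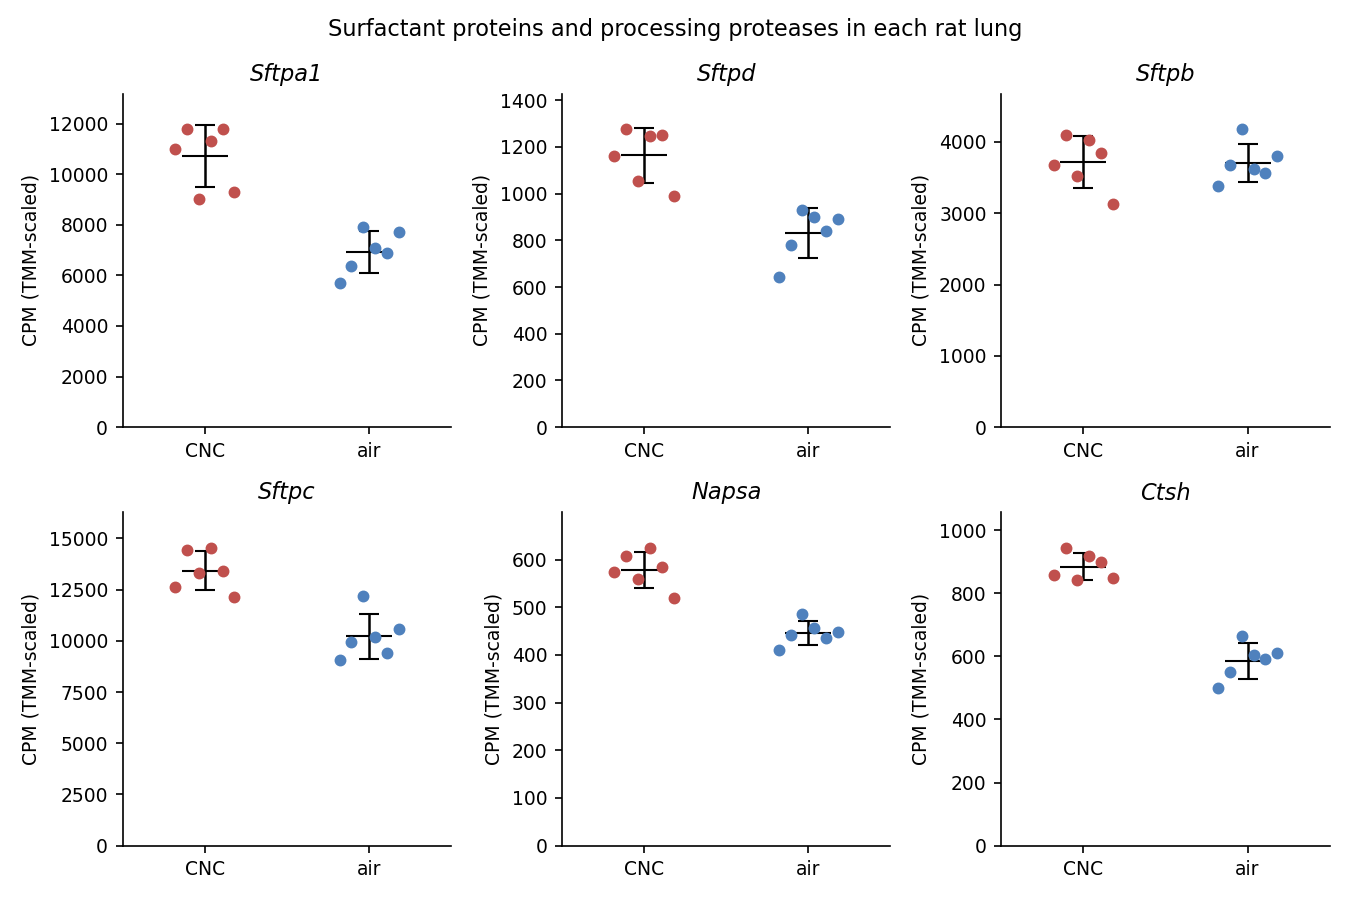
TMM-scaled CPM of the 6 tested members in each rat lung, CNC left and air right, with 1 point per rat and bars for the mean ± SD (n = 6 per group). The CNC rats lie above the air rats for Sftpa1, Sftpd, Napsa and Ctsh, meet them at 1 rat for Sftpc (12156 against 12171 CPM) and share their range for Sftpb.

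Both detected proteases rose, by unequal amounts. Ctsh ran from 841 CPM through a median of 878 to 944 CPM in CNC rats, and from 498 through 598 to 663 CPM in air rats. No CNC rat came near the air range, and the means were 885 ± 41.8 CPM in CNC rats and 586 ± 56.4 CPM in air rats (SD, n = 6 each). Ctsh rose 1.51-fold (log2 0.59 ± 0.06 SE, edgeR adjusted p = 3.37e-06). Napsa ran from 518 CPM through a median of 579 to 625 CPM in CNC rats, and from 410 through 445 to 486 CPM in air rats. The groups did not overlap here either, and the means were 578 ± 37.5 CPM in CNC rats and 446 ± 24.9 CPM in air rats (SD, n = 6 each). Napsa rose 1.3-fold (log2 0.37 ± 0.05 SE, edgeR adjusted p = 4.2e-05).

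Pgc, the pepsinogen, was not tested, because it had 1 count over all CNC libraries and 2 counts over all air libraries. Both are under the 3 counts that a count of 0 allows, which is 0.0391 CPM over the CNC group and 0.0404 CPM over the air group. That floor is not an upper limit for Pgc, whose counts were above 0, and it covers counting error only. No fold change is given for Pgc.

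**Figure D2:**
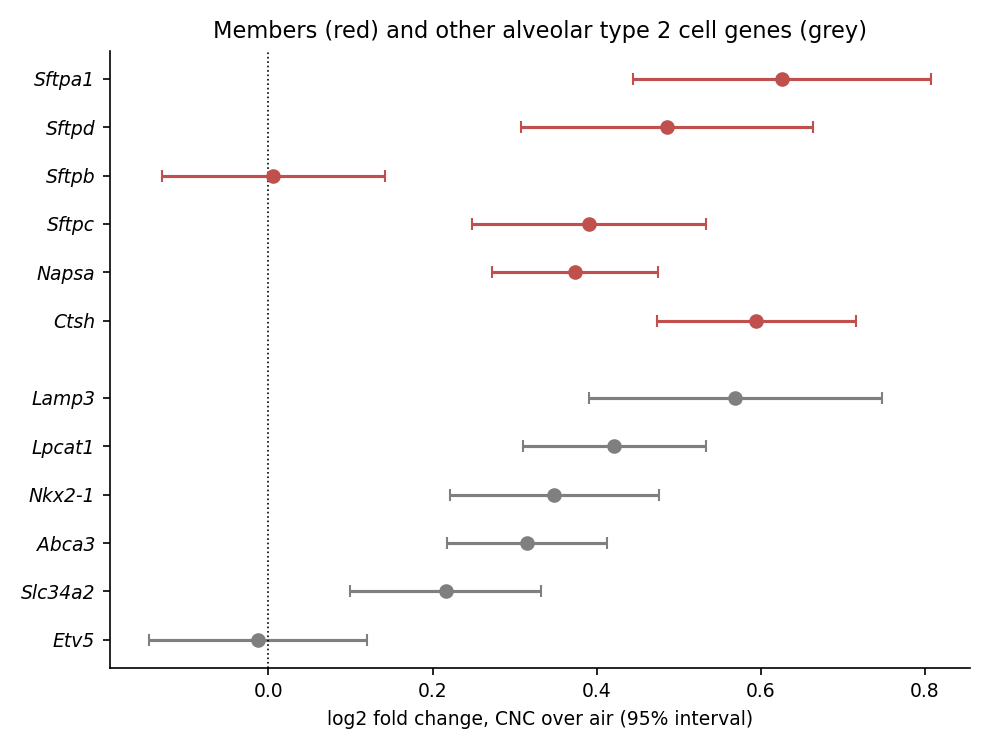
Log2 fold change of CNC over air from the edgeR fit, with 95% intervals, for the 6 tested members (red) and 6 other alveolar type 2 cell genes (grey), all fitted over 12 rats. Sftpb at 0.01 and Etv5 at -0.01 sit on the line of no change, and the other 10 genes lie to its right, from 0.22 for Slc34a2 to 0.63 for Sftpa1.

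The differences between the members were then tested directly, as the ratio of 2 members' counts within each rat. Such a ratio does not depend on how libraries are scaled. It compares counts without a correction for transcript length, so its size says nothing of relative abundance and its change between groups is what can be read. Pgc allowed no ratio, which left 15 of the 21 pairs. The mean log2 ratio was compared between the groups by exact permutation (2-sided, every way of dividing the rats into 6 and 6), which can give no p under 0.00216, and p-values were adjusted over the 15 pairs.

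All 5 ratios with Sftpb on top fell, and in none of them did the groups overlap. They share the counts of Sftpb and so are not 5 independent results. With Sftpb nearly unchanged, their sizes mirror the fold changes of the other members given above. Over all other tested genes, the ratio of the gene to Sftpb lay wholly higher in CNC for 4.39%, wholly lower for 0.766% and apart in either direction for 5.15%. Sftpb/Sftpa1 had a lowest, median and highest value of 0.327, 0.342 and 0.39 in CNC rats and of 0.492, 0.523 and 0.592 in air rats. This was a 1.54-fold lower ratio (log2 difference -0.62, exact permutation p = 0.00216, adjusted p = 0.00464, lower in 6 of 6 CNC rats than in any air rat), and the same p and adjusted p held for the other 4 ratios. Sftpb/Ctsh ran from 3.69 through 4.28 to 4.39 in CNC rats and from 6.0 through 6.27 to 6.79 in air rats, 1.51-fold lower. Sftpb/Sftpd ran from 3.07 through 3.19 to 3.33 in CNC rats and from 4.02 through 4.38 to 5.25 in air rats, 1.4-fold lower. The SD of this ratio on the log2 scale was 0.04 in the CNC rats and 0.14 in the air rats, a difference in spread that was not tested. Sftpb/Sftpc, the ratio of the hydrophobic proteins, ran from 0.258 through 0.281 to 0.292 in CNC rats and from 0.343 through 0.364 to 0.379 in air rats, 1.31-fold lower. Sftpb/Napsa, which sets a substrate beside its protease, ran from 6.04 through 6.43 to 6.75 in CNC rats and from 7.93 through 8.27 to 8.6 in air rats, 1.29-fold lower.

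**Figure D3:**
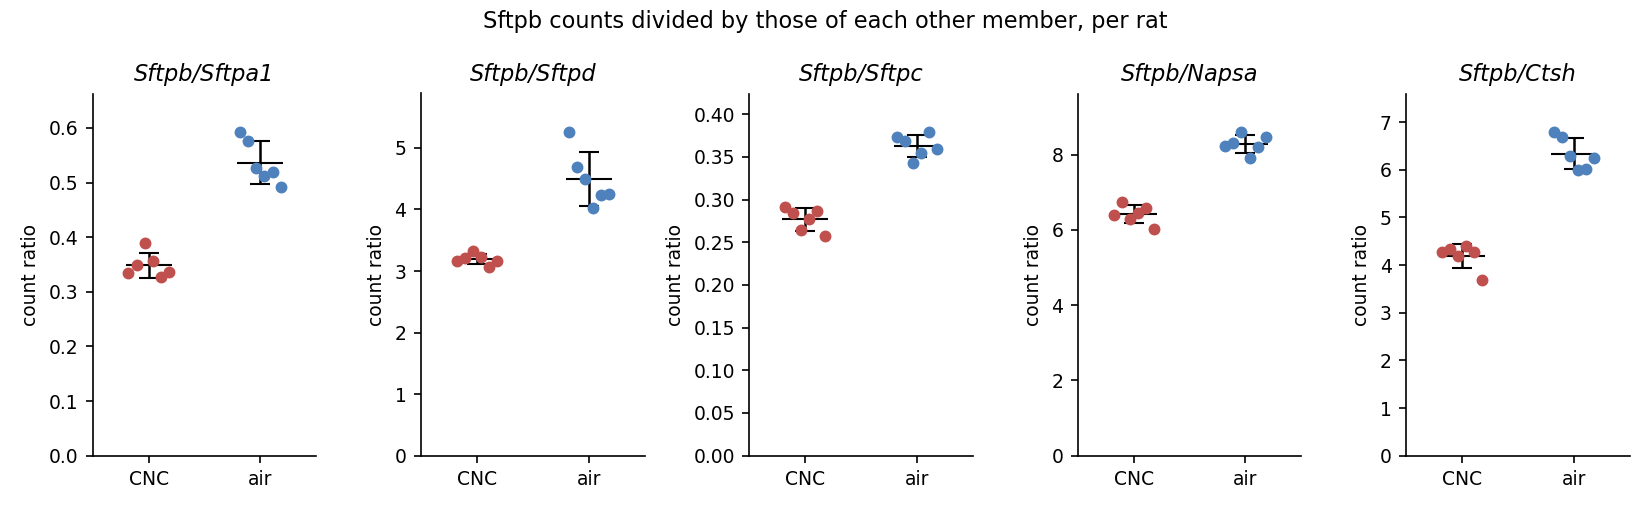
Counts of Sftpb divided by those of each other tested member in the same rat, CNC left and air right, with 1 point per rat and bars for the mean ± SD (n = 6 per group). In all 5 panels every CNC rat lies below every air rat, for example at most 0.292 in CNC against at least 0.343 in air for Sftpb/Sftpc.

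The 5 members that rose did not all rise by the same amount. Sftpa1 rose relative to Sftpd (log2 difference 0.14, exact permutation adjusted p = 0.0108), to Napsa (0.25, exact permutation adjusted p = 0.0108) and to Sftpc (0.23, exact permutation adjusted p = 0.0195), with some overlap of the groups in each. Ctsh rose relative to Sftpc and to Napsa without overlap. The share of all tested genes whose ratio to Ctsh lies apart was not determined. Sftpc/Ctsh was 15.2 ± 0.617 in CNC rats and 17.5 ± 0.949 in air rats, and Napsa/Ctsh was 0.653 ± 0.0243 in CNC rats and 0.765 ± 0.0397 in air rats (SD, n = 6 each, exact permutation adjusted p = 0.00464 for each). The ratio of Napsa to Ctsh was thus lower in CNC by 1.17-fold although both proteases rose. Sftpa1/Ctsh was 12.1 ± 0.986 in CNC rats and 11.8 ± 0.442 in air rats, and did not pass (SD, n = 6 each, log2 difference 0.03, exact permutation adjusted p = 0.613). Sftpc/Napsa was 23.2 ± 0.685 in CNC rats and 22.9 ± 1.24 in air rats, and did not pass either (SD, n = 6 each, log2 difference 0.02, exact permutation adjusted p = 0.603). Sftpd/Sftpc, Sftpd/Napsa and Sftpd/Ctsh did not pass (log2 differences 0.09, 0.12 and -0.11, exact permutation adjusted p = 0.20, 0.092 and 0.0531). The Sftpd/Ctsh ratio passed without air replicate 1 (exact permutation adjusted p = 0.00812) and without CNC replicate 5 (exact permutation adjusted p = 0.0443), with log2 differences of -0.14 and -0.13.

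**Figure D4:**
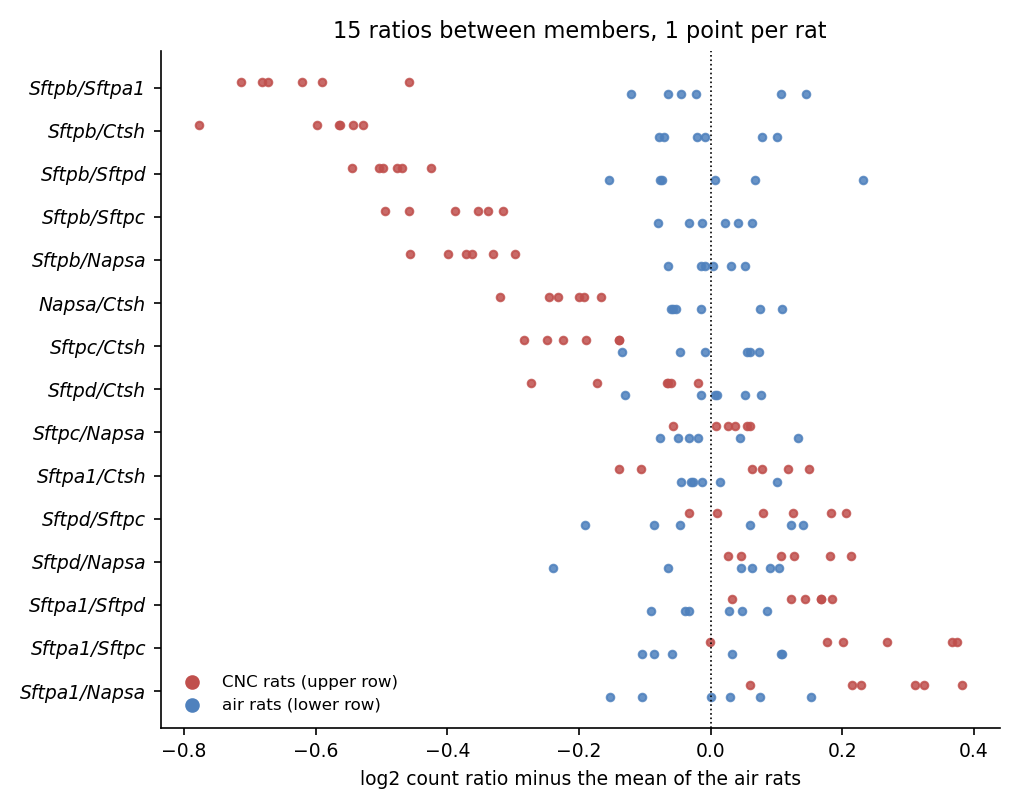
All 15 count ratios between tested members on a log2 scale, each shifted so that the mean of the air rats is 0, with 1 point per rat (CNC in the upper row of each pair, air in the lower). The 5 ratios with Sftpb on top lie at the left, from a mean of -0.62 to -0.37, apart from the air rats.

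As shares of the counts of the 4 surfactant proteins, which are given as a description, Sftpb made up 12.8 ± 0.308% in CNC rats and 17.1 ± 0.627% in air rats (SD, n = 6 each). Sftpa1 made up 36.9 ± 1.96% in CNC rats and 31.9 ± 1.34% in air rats. Sftpc held 46.3 ± 2.01% in CNC rats and 47.1 ± 1.2% in air rats, and Sftpd 4.01 ± 0.098% in CNC rats and 3.83 ± 0.26% in air rats. The shares of Sftpb did not overlap, at most 13.1% in CNC rats and at least 16.5% in air rats. Together the 4 genes took 2.87 ± 0.224% of all counts in CNC libraries and 2.18 ± 0.207% in air libraries.

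Set beside other genes of alveolar type 2 cells, Sftpb was low and Sftpa1 and Ctsh were high. Club cells and macrophages also make some of the members, and their part in this comparison was not tested. The comparison set was Abca3 (the lamellar body lipid pump), Slc34a2 (a phosphate carrier), Lamp3 (a lamellar body membrane protein that mature dendritic cells also make), Lpcat1 (an enzyme of surfactant lecithin synthesis) and the transcription factors Etv5 and Nkx2-1. Of these 6 genes 5 rose, led by Lamp3 (1.48-fold) and Lpcat1 (1.34-fold), and Etv5 had a log2 fold change of -0.01 (edgeR adjusted p = 0.917). Their mean log2 CPM was 9.41 ± 0.09 in CNC rats and 9.1 ± 0.10 in air rats (SD, n = 6 each). Measured against that mean, Sftpb fell by 0.31 on the log2 scale in CNC, with no overlap (exact permutation p = 0.00216, adjusted over 6 members p = 0.00433, 6 of 6 CNC rats below the air range). Sftpa1 and Ctsh rose by 0.32 and 0.29 without overlap (exact permutation adjusted p = 0.00433 for each), and Sftpd rose by 0.18 (exact permutation adjusted p = 0.026). Sftpc and Napsa differed by 0.09 and 0.06 and did not pass (exact permutation adjusted p = 0.128 for each). The mean of the set itself rose by 0.31, so a gene without change in CPM falls by that much on this measure. The share of all tested genes that would pass or lie apart on it was not determined. With the median of the 6 genes in place of their mean, Sftpa1, Ctsh and Sftpd no longer passed (0.13, 0.10 and -0.0041, exact permutation adjusted p = 0.0519, 0.11 and 0.933), while over all alternatives Sftpb lay between -0.49 and -0.26. The Sftpd result was also lost without CNC replicates 2, 4 and 5 in turn (exact permutation adjusted p from 0.0552 to 0.0584), whereas the Napsa value of 0.09 without air replicate 4 passed (exact permutation adjusted p = 0.0208).

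Likeness of the members' profiles over the rats is given as a distance. The measure of likeness was the root mean square difference in log2 CPM, each gene centred on its own mean over the 12 rats, against 10532 genes of at least 10 CPM. The gene most like Sftpc was Napsa, at 0.0579, and then Rnaset2, a lysosomal ribonuclease, at 0.0702. Sftpa1 was most like Lyz2, a lysozyme of macrophages and type 2 cells, at 0.0573, and then Tc2n at 0.0593. Ctsh was most like Npc2, a lysosomal cholesterol carrier, at 0.0414, and then Gfer, a mitochondrial sulfhydryl oxidase, at 0.0618. Sftpd was closest to Apobr, a lipoprotein receptor, at 0.0735, and then to Npc2 at 0.0802. Napsa was closest to Scp2, a lipid carrier, at 0.0433, and then to Odc1, the first enzyme of polyamine synthesis, at 0.0543. The genes nearest to Sftpb were Scyl3 at 0.0616 and Magi1 at 0.062, neither of which passed the edgeR test (log2 fold changes 0.01 and -0.06, adjusted p = 0.895 and 0.437). All the other named neighbours rose, by 1.26-fold (Odc1) to 1.61-fold (Lyz2). Between members the distance was 0.0859 for Sftpa1 and Ctsh and 0.0879 for Sftpa1 and Sftpd, but 0.159 for Sftpa1 and Sftpc and 0.163 for Sftpa1 and Napsa. Sftpb lay between 0.19 (Napsa) and 0.324 (Sftpa1) from the other members. These distances share the libraries and the group difference, and are given as a description. The neighbours were chosen on the same values, so their fold changes and calls follow from that choice.

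**Figure D5:**
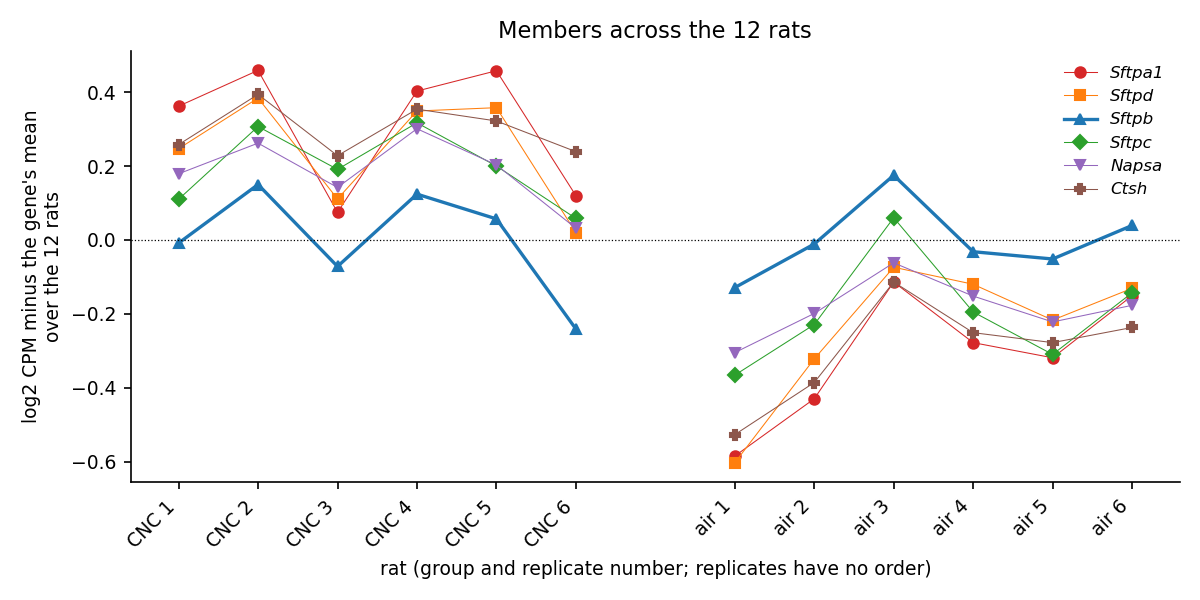
Log2 CPM of the 6 tested members in each of the 12 rats, each gene centred on its mean over all rats, CNC rats left and air rats right. Sftpb (thick blue line) lies below the other members in every CNC rat and above them in every air rat, and CNC replicates 3 and 6 have the lowest Sftpa1 and Sftpd of their group.

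Within the CNC group, Sftpa1 was at 9024 and 9313 CPM in replicates 3 and 6 and between 11015 and 11779 CPM in the other 4. The summed markers of alveolar macrophages were also lowest in these rats, at 466 and 480 CPM, against 571 to 705 CPM in the other 4. So was the sum of the type 2 comparison set, at 5706 and 5473 CPM, against 6120 to 6611 CPM in the other 4. Without these 2 rats the log2 fold change of Sftpa1 was 0.72 and that of Sftpb 0.07, and every member kept its edgeR call. The Sftpa1/Ctsh ratio, described above, then passed (log2 difference 0.10, exact permutation adjusted p = 0.0325). These 2 rats were left out after the values were seen and had the lowest Sftpa1 and Sftpa1/Ctsh of their group. The larger Sftpa1 change and the new call follow from that choice and are no added support. Over the whole lung, macrophage markers summed to between 466 and 705 CPM in CNC rats and between 364 and 447 CPM in air rats, where 5 of 7 tested genes rose and 1 fell, with Marco at 0 counts in every library. Neutrophil markers summed to between 328 and 547 CPM in CNC rats and between 142 and 232 CPM in air rats, with 3 of 6 genes higher and none lower. The largest part of the sum was S100a9, at 275 ± 68.8 CPM in CNC rats and 73.2 ± 12.9 CPM in air rats (SD, n = 6 each). S100a8 and Cxcr2 also rose. Csf3r, Mmp8 and Retnlg did not pass (log2 fold changes 0.18, -0.09 and -0.17, edgeR adjusted p = 0.31, 0.656 and 0.50). Club cell markers summed to between 4444 and 5663 CPM in CNC rats and between 4938 and 6633 CPM in air rats, with 1 of 6 genes higher and 2 lower. Type 1 cell markers, from the thin cells of the alveolar wall, summed to between 7653 and 7905 CPM in CNC rats and between 8001 and 9915 CPM in air rats, with 6 of 9 lower. Of the markers of other tissues, those of endothelium were lower for 7 of 7 genes, of fibroblasts for 5 of 6, of red cells for 3 of 3, of smooth muscle for 2 of 5, of ciliated cells for 1 of 7 and of adipocytes for 1 of 2. None of these lists had a higher member, and 0 of 5 lymphocyte and 0 of 6 heart muscle genes passed, where heart muscle markers summed to between 11.3 and 113.5 CPM in CNC rats and between 11.4 and 387 CPM in air rats, with air replicates 4 and 5 highest. Several of these counts moved with the settings. When the circadian clock genes described next entered the fit as a covariate, the genes called lower were 0 of 9 for type 1 cells, 3 of 7 for endothelium, 2 of 6 for fibroblasts, 4 of 5 for smooth muscle, 3 of 5 for lymphocytes and 2 of 6 for heart muscle, and 1 of 6 neutrophil genes was called higher. Without air replicates 4 and 5, 0 of 5 smooth muscle and 0 of 6 club cell genes were called lower, and no smooth muscle gene was on leaving out any of 8 single rats. The part of these cell types in the results on the members was not tested.

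Circadian clock genes differed between the groups, with 3 of 3 genes of the Arntl, Npas2 and Clock list lower in CNC, and 6 of 7 genes of the Dbp, Per and Nr1d list higher and 1 lower. With a covariate built from these genes, Sftpa1, Napsa and Ctsh still passed (edgeR adjusted p = 0.0163, 0.0182 and 0.00581). The calls of Sftpc (log2 fold change 0.40, against 0.39 without it) and Sftpd (0.47, against 0.49) did not (edgeR adjusted p = 0.0671 and 0.0742). The covariate ran from -2.59 to 0.0141 in CNC rats and from -0.499 to 2.2 in air rats. Only air replicate 4 lay inside the CNC range. It thus largely follows the group, so clock and exposure cannot be told apart well, and a lost call does not show dependence on the clock. The part of the clock in these results was not tested further.

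Among genes that regulate surfactant gene transcription, Nkx2-1, the master regulator of lung epithelium with 2 matches to its letters upstream of Sftpb, rose to 399 ± 30.1 CPM in CNC rats, against 314 ± 28.1 CPM in air rats (SD, n = 6 each, 1.27-fold, edgeR adjusted p = 0.00054). With the clock covariate the log2 fold change of Nkx2-1 was 0.29, against 0.35 without it, and did not pass (edgeR adjusted p = 0.12). Cebpa, which drives type 2 cell maturation, rose 1.21-fold (log2 0.28), and with that covariate its log2 fold change was 0.33 and did not pass (edgeR adjusted p = 0.134). Epas1, a hypoxia-inducible factor also abundant in endothelium, fell 1.2-fold, and Nr3c1, the glucocorticoid receptor, fell 1.11-fold (log2 -0.15), where the covariate gave -0.03 (edgeR adjusted p = 0.792). Foxa1 and Foxa2, looked at for their letters upstream of Sftpb after the values were seen, had log2 fold changes of 0.0048 and 0.02 and did not pass (edgeR adjusted p = 0.98 and 0.898). Beside this and the other list counts stand the shares of all tested genes, 13.2% higher and 11.4% lower. In all, 5 of the 21 genes of this list rose and 2 fell, with a median log2 fold change of -0.03. With the clock covariate 1 was higher and 1 lower, and the number higher was 2 without CNC replicate 2, 3 without air replicate 2, 2 without air replicates 4 and 5, and 3 with library size alone.

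Most genes that clear surfactant or receive collectins rose. Of the clearance list 8 of 10 tested genes rose and 0 fell, with a median log2 fold change of 0.54. These included the lipid-laden macrophage protein Gpnmb (2.07-fold), the myeloid transcription factor Spi1 (1.49-fold), the acid lipase Lipa (1.42-fold) and Csf2rb, the receptor subunit for the cytokine that drives surfactant catabolism in macrophages (1.65-fold). Of the collectin receptors 7 of 9 rose and 1 fell, with a median of 0.21. Fcgr2b (2.41-fold), the endotoxin co-receptor Cd14 (1.32-fold), calreticulin, Calr (1.24-fold), and the SP-A receptor Myo18a (1.14-fold) rose. No other collectin passed: Colec12 had a log2 fold change of -0.14 and Mbl1 of 0.66 (edgeR adjusted p = 0.215 and 0.212), although Mbl1 passed without air replicates 4 and 5 (log2 fold change 1.27, edgeR adjusted p = 0.0232).

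Of 12 tested proteases related to cathepsin H or napsin A, 8 rose and 1 fell. Of the other papain-family cathepsins 5 of 8 rose and 1 fell, with a median of 0.28. Ctsz (1.83-fold), Ctsb (1.35-fold), Ctss (1.43-fold) and the matrix-degrading Ctsk (2.68-fold) had the smallest adjusted p. The 1 that fell, named after its value was seen, was the lysosomal endopeptidase Ctsl, at 254 ± 10.8 CPM in CNC rats and 288 ± 11.8 CPM in air rats (SD, n = 6 each, edgeR adjusted p = 0.00169), and with the clock covariate no gene of this list was called lower. Of the other aspartic proteases 3 of 4 tested genes rose, with a median of 0.36: Ctsd (1.59-fold), Bace2 (1.26-fold) and Ctse (1.32-fold), whose log2 fold change was 0.40 and with the clock covariate 0.03 (edgeR adjusted p = 0.938), while Bace1 had a log2 fold change of -0.01 (edgeR adjusted p = 0.928). Of the cathepsin inhibitors 2 of 4 rose, with a median of 0.25: Cstb (1.56-fold) and Cst7 (1.35-fold), where Cst7 had a log2 fold change of 0.43, and of 0.32 with the clock covariate (edgeR adjusted p = 0.257). Cst3 and Cst6 had log2 fold changes of 0.06 and -0.19 and did not pass (edgeR adjusted p = 0.181 and 0.266).

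Of the surfactant lipid and lamellar body genes 10 of 24 rose and 1 fell, with a median of 0.17. The smallest adjusted p belonged to the lipid flippase Atp8a1 (1.71-fold), the triglyceride enzyme Dgat2 (1.78-fold), Lpcat1 (1.34-fold) and the fatty acid synthase Fasn (1.61-fold). Of the folding and routing genes for proproteins 6 of 16 rose and 0 fell, with a median of 0.04, and 3 of 16 rose without air replicates 4 and 5. The chaperone cofactors Dnajc3 (1.22-fold) and Dnajb11 (1.14-fold), the chaperone Hspa5 (1.15-fold) and the stress factor Xbp1 (1.1-fold) rose, the last of which was lost without air replicates 4 and 5 (edgeR adjusted p = 0.0899). Of the genes whose proteins share the saposin fold of SP-B or the BRICHOS domain of SP-C, or act beside saposins, 1 of 7 tested rose and 2 fell, with a median of -0.04. Those counts stand beside 13.2% higher and 11.4% lower over all tested genes. Psap, the saposin precursor, rose 1.28-fold, the BRICHOS gene Itm2a fell 1.21-fold and Itm2b fell 1.07-fold. Aoah had a log2 fold change of 0.21 and did not pass (edgeR adjusted p = 0.111), but passed without air replicates 4 and 5 (edgeR adjusted p = 0.0252). Itm2a had a log2 fold change of -0.28, and of -0.32 with the clock covariate, where it did not pass (edgeR adjusted p = 0.0728). The Itm2b call was lost with no count filter, with 1 surrogate variable, with the clock covariate, without air replicates 4 and 5, and on leaving out any of 9 single rats.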

How the data were processed

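Polyadenylated RNA from a lung piece of each of 12 rats was sequenced from stranded libraries amplified over 12 PCR cycles, per the labels' protocols. Per the submitters' processing notes, the tools included HTSeq 0.11.2, HISAT2 2.1.0, SAMtools 1.8, Trimmomatic 0.35, bcl2fastq 2.19 and Cufflinks, whose steps are not described. The authors deposited raw counts per gene symbol with no normalization; the name of the table gives the build as Rnor6. Neither annotation nor strand setting is given in the sources used here, so reads of overlapping or antisense genes could not be separated. Groups came from the treatment label, and replicate numbers only name a rat. The labels do not tell which rats shared a cage, so an effect of cage or chamber cannot be told apart from that of CNC. The p-values measure the spread between these rats, taken as independent.

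Counts were fitted in R 4.3.3 with edgeR 4.0.16 (filterByExpr with a minimum count of 10 and minimum total of 15, TMM, glmQLFit, glmQLFTest) over 15019 genes, at an adjusted p of 0.05. SE is the log2 fold change divided by the square root of F, and log2 CPM use a prior count of 2. Alternatives used DESeq2 1.42.0, limma 3.58.1, sva 3.50.0, other scalings and filters, a clock covariate and left-out rats. No libraries looked like repeats: over 30 pairs within groups, chi-square divided by its degrees of freedom was 2.6 to 7.93, against 1 from sampling alone. The edgeR step was tested on simulated counts. The members and lists were chosen with earlier results of these data known. Named genes were all members, the 4 of smallest adjusted p per pathway list, and the 2 nearest profiles per member. Figures used Python 3.11.15 and matplotlib 3.10.9.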

Additional observations from a re-analysis of the deposited data

Results flagged for a closer look

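The Sftpb/Ctsh count ratio of CNC replicate 6 was 3.69, while the other 5 CNC rats lay between 4.18 and 4.39. Its gap to the nearest rat was 0.704 of the range of the group, above Dixon's 95% critical value for 6 samples. This was the 1 case among 54 sets of 6 values checked over the members' levels and ratios, and chance flags about 1 in 20. Sftpb itself was lowest of all 12 rats in this lung, at 3130 CPM.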

How the results depend on the processing

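No paired analysis was possible because the replicate numbers only name rats and pair none across the groups. The direction and call of Sftpa1, Napsa and Ctsh, and the lack of a call for Sftpb, held under all 25 alternatives, including the omission of air replicates 4 and 5 and of CNC replicates 3 and 6, which was added after seeing the data. The log2 fold change of Sftpb lay between -0.0242 and 0.0539 without any 1 rat and at 0.0896 with the clock covariate. With the clock covariate, which largely follows the group, 1388 genes changed (849 higher and 539 lower), against 3691 without it (1981 and 1710). There the log2 fold changes of Sftpc and Sftpd were 0.403 and 0.472 and no longer passed, and the cause was not tested. Of 35 named list and type 2 genes that passed, 28 passed with that covariate. No scaling moved the median of all genes by more than 0.1 on the log2 scale. All 5 Sftpb ratios kept their call under every alternative run. Sftpa1/Ctsh passed without CNC replicates 3 and 6 (0.102), which had the lowest values of this ratio in their group, so that call follows from the choice. Sftpd/Ctsh passed on ranks (-0.109) and lay between -0.135 and -0.0763 without any 1 rat. Against the type 2 genes, the median of the set gave 0.132 for Sftpa1, -0.00412 for Sftpd and 0.105 for Ctsh, none of which passed. Leaving out Lamp3 gave 0.136 for Sftpc and 0.114 for Napsa, which passed, and Abca3 alone gave 0.174 for Sftpd, which did not. Leaving out 1 rat gave 0.131 to 0.222 for Sftpd and 0.0429 to 0.0873 for Napsa, and Napsa passed at 0.0843 without air replicates 4 and 5. Pgc, with 1 count over the CNC libraries and 2 over the air libraries, could not be tested.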

Other observations

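Genes next to the members on the chromosomes were read from the gene order of the RefSeq table of GRCr8, for protein-coding symbols present in the counts. The collectin genes Sftpa1 and Sftpd flank Mbl1, a mannose-binding lectin with 91 counts over the CNC libraries and 56 over the air libraries, which did not pass (edgeR adjusted p = 0.212). On the other side of Sftpa1 lies Mat1a, a methionine adenosyltransferase, which rose to 14.9 ± 1.42 CPM in CNC rats, against 12.0 ± 1.41 CPM in air rats (SD, n = 6 each, 1.23-fold, edgeR adjusted p = 0.0184). Sftpc lies between Bmp1, a procollagen protease (log2 fold change 0.07, edgeR adjusted p = 0.383), and Lgi3, which rose 1.14-fold (466 ± 44.4 CPM in CNC rats and 411 ± 32.1 CPM in air rats, SD, n = 6 each, edgeR adjusted p = 0.043). Sftpb lies between Atoh8 and Usp39, with log2 fold changes of -0.12 and 0.10 (edgeR adjusted p = 0.372 and 0.126). Next to Napsa, Nr1h2 had a log2 fold change of -0.06 and did not pass (edgeR adjusted p = 0.226). Next to Ctsh, Morf4l1 had a log2 fold change of -0.04 and did not pass (edgeR adjusted p = 0.349), and Rasgrf1 had too few counts to test.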
